A study of Mus musculus with 9 samples.

Results

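The 10 genes described here mark the turn of cortical progenitors towards astrocytes. They are 5 transcription factors of glial fate (*Nfia*, *Nfib*, *Nfix*, *Sox9* and *Zbtb20*) and 5 genes of early astrocyte products (*Aldh1l1*, *Slc1a2*, *Aldoc*, *Apoe* and *Sparcl1*). They were chosen by name, and each had 1 entry among the 14670 genes listed. RNA of cerebral cortex microdissected from mouse embryos at embryonic day 16.5 was sequenced in 9 libraries, and RNA levels are given in CPM, the reads of a gene scaled to the total of its library. Of these libraries, 3 were labelled *Fzd3* -/- mutant (replicates 1, 2 and 3), 3 *Celsr3* -/- mutant (replicates 1, 2 and 4) and 3 Control +/+ (replicates 1, 2 and 3). *Fzd3* encodes a Frizzled receptor and *Celsr3* a seven-pass cadherin, both of planar cell polarity signalling. The comparison of the 3 genotypes asks how far the genes that accompany readiness for gliogenesis differ in mutant cortex.

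The methods place the mutants on a mixed C57Bl/6 and CD1 background and take heterozygous or wild-type littermates as controls, so a control labelled +/+ may carry 1 mutant allele. The labels name Trizol for the extraction and the methods name an RNeasy kit. The methods speak of separate tissue samples for each genotype, but the labels tie no library to an embryo and give no batch or date, so *P* values measure the spread between these libraries, which may be partly technical. The reads in listed genes, estimated from the steps between low values, were 52266343, 61637621 and 39857305 in controls 1, 2 and 3. They were 42963627, 45848829 and 52249430 in *Fzd3* mutants 1, 2 and 3, and 60333846, 54974978 and 69600589 in *Celsr3* mutants 1, 2 and 4. All reads of the *Fzd3* mutants were thus below those of the *Celsr3* mutants, whereas the controls overlapped both groups.

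In the developing cortex, radial glia first produce neurons and later turn to making astrocytes and oligodendrocytes. Sox9 and the nuclear factor I (NFI) proteins, encoded by *Nfia*, *Nfib* and *Nfix*, are needed for the onset of gliogenesis, and Notch, JAK-STAT and bone morphogenetic protein signals act on the same astrocyte genes. Most of these factors are also made in radial glia, and the NFI factors in neurons as well, so none of them marks astrocytes alone in embryonic tissue.

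The mutated genes were measured first, as a check of the labels. *Celsr3* was at 196, 243 and 214 CPM in controls 1, 2 and 3. In *Fzd3* mutants 1, 2 and 3 it was at 253, 213 and 255 CPM, and in *Celsr3* mutants 1, 2 and 4 at 122, 139 and 118 CPM. All *Celsr3* mutant libraries lay below all others (log2 fold change against control -0.78, limma adjusted *P* = 0.00180). Among 20 alternative settings the adjusted *P* missed 0.05 in 2, with replicate number as a block (0.0699) and without moderation of variances (0.177), in a range of 0.00136 to 0.177. *Fzd3* was at 58.0, 67.7 and 46.9 CPM in controls, 46.5, 39.8 and 59.6 CPM in *Fzd3* mutants and 52.1, 61.1 and 54.8 CPM in *Celsr3* mutants. The groups overlapped (log2 fold change of *Fzd3* mutants against control -0.24, limma adjusted *P* = 0.240). Without *Fzd3* mutant 3 the adjusted *P* was 0.0457, in a range of 0.0457 to 0.633. The *Fzd3* allele is described as a deletion of 1 exon, whereas the CPM covers reads over the whole gene, so this level does not check the label of the *Fzd3* mutants.

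Neuronal genes were high in every library. The projection neuron markers, 11 of 12 of them listed, summed to between 7025 and 7515 CPM, with *Dcx* the most abundant. This sum does not separate cortical from other neurons. Of 30 further astrocyte genes, 21 were listed, while *Gfap*, *S100b*, *Aqp4*, *Glul*, *Gjb6*, *Ntsr2*, *Gpr37l1*, *Cldn10* and *Slc39a12* were not analysed here. These later astrocyte markers therefore do not enter the values below.

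A pair of libraries stood apart. In *Celsr3* mutant 4, the 7 listed of 9 markers of meninges summed to 182 CPM, against 12.2 to 23.8 CPM in the other 8 libraries, and *Col3a1*, the most abundant, was at 87.6 CPM against 2.61 to 6.86. In *Fzd3* mutant 3, markers of oligodendrocyte precursors summed to 41.2 CPM, against 79.0 and 69.3 CPM in *Fzd3* mutants 1 and 2, a value within the 29.6 to 42.5 CPM of the other genotypes. Some results, but not all that move, are given with and without these libraries. In *Celsr3* mutants against control, the median log2 fold change of endothelial and pericyte markers was 0.147, and 0.00388 without *Celsr3* mutant 4. For microglial markers it was 0.142, and 0.069 without that library.

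Levels of different genes were compared per kb of annotated exons. In controls, *Nfix* stood at 95.7 ± 14.3 CPM per kb (s.d., n = 3) and *Nfib* at 82.1 ± 16.0, followed by *Sparcl1* at 42.8 ± 7.94 and *Aldoc* at 33.7 ± 4.68. *Nfia* followed at 22.7 ± 4.34 CPM per kb, *Apoe* at 11.1 ± 0.591 and *Sox9* at 8.16 ± 1.50. The lowest were *Aldh1l1* at 4.75 ± 0.983, *Zbtb20* at 3.14 ± 0.370 and *Slc1a2* at 2.66 ± 0.555 CPM per kb. Within each control library *Nfix* stood above *Nfib*. *Sparcl1* stood below *Aldoc* in control 2 and *Zbtb20* below *Slc1a2* in control 3, so the order of these neighbours was not the same in all controls. *Nfib* came before *Nfix* when the longest transcript replaced the union of exons.

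The order was the same in *Celsr3* mutants. In *Fzd3* mutants *Apoe*, at 19.4 CPM per kb, stood above *Nfia* at 16.0, and *Aldh1l1*, at 7.07, stood above *Sox9* at 5.78. *Slc1a2*, at 3.37 CPM per kb, stood above *Zbtb20* at 2.75. *Slc1a2* exceeded *Zbtb20* and *Aldh1l1* exceeded *Sox9* within each of these libraries, whereas *Apoe* exceeded *Nfia* in *Fzd3* mutants 1 and 2 but not in *Fzd3* mutant 3, at 17.4 against 17.5. On the scale of the whole table, where the median gene had 24.3 CPM in controls, *Nfib* exceeded 99.7% of genes and *Sox9* 57.8%, whereas *Aldh1l1* exceeded 47.1%.

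The 10 genes were placed on the GRCm38 build by the GENCODE M21 annotation, each as the whole gene with its introns. *Nfia* (XLOC_022060) covers chr4:97772734-98118874 on the plus strand and *Nfib* (XLOC_023346) chr4:82290173-82705750 on the minus strand. *Nfix* (XLOC_032525) covers chr8:84699876-84800344 on the minus strand, *Sox9* (XLOC_004722) chr11:112782224-112787760 and *Zbtb20* (XLOC_012125) chr16:42875881-43642602, both on the plus strand. Of the astrocyte products, *Aldh1l1* (XLOC_026773) covers chr6:90486427-90600203, *Slc1a2* (XLOC_017234) chr2:102658659-102790784 and *Aldoc* (XLOC_004259) chr11:78322968-78327781, all on the plus strand. *Apoe* (XLOC_029821) covers chr7:19696109-19699188 and *Sparcl1* (XLOC_025687) chr5:104079111-104113733, both on the minus strand.

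Exons of 3 members overlap an exon of a listed gene on the opposite strand. They are *Aldh1l1* with *Gm15756* (499 bases, 11.1% of the exons of *Aldh1l1*), *Nfix* with *G430095P16Rik* (137 bases) and *Nfia* with *E130114P18Rik* (4 bases). Whether the counting used strand is not given in the sources used here, so reads in these stretches cannot be assigned. *Gm15756* was at 1.12, 1.18 and 1.28 CPM in controls, 1.88, 2.31 and 1.09 CPM in *Fzd3* mutants and 1.49, 0.853 and 0.840 CPM in *Celsr3* mutants, all below every value of *Aldh1l1*.

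Promoters are shown for 5 members that passed the test in *Fzd3* mutants, *Nfia* and *Aldoc*, which fell, and *Aldh1l1*, *Slc1a2* and *Apoe*, which rose. RefSeq windows of 300 bases (GRCm38.p6) matched 7 of 10 members, in 13 windows, some of them overlapping, and *Nfib*, *Sox9* and *Sparcl1* are named only. Letters were searched on both strands for an NFI half-site (TTGGCA), a SOX site (ACAAAG), an RBPJ core (TGGGAA) and a STAT site (TTCNNNGAA), and capitals mark matches, none of which overlaps another in the windows shown. The windows printed are those nearest to the annotated 5′ end of each gene, and they belong to RefSeq start sites that can lie far from it. The distance was 190791 bases for *Nfia*, whose window lies outside the gene as annotated, 64366 for *Aldh1l1*, 47779 for *Slc1a2*, 105 for *Aldoc* and 0 for *Apoe*, so the first 3 do not show the promoter at the annotated start.
Nfia, chr4:97581693-97581992, plus strand: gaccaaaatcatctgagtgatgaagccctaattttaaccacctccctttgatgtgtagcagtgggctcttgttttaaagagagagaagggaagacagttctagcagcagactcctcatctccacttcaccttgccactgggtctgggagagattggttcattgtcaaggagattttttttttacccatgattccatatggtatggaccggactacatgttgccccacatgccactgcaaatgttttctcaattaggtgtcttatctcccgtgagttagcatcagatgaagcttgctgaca
Aldoc, chr11:78322823-78323122, plus strand: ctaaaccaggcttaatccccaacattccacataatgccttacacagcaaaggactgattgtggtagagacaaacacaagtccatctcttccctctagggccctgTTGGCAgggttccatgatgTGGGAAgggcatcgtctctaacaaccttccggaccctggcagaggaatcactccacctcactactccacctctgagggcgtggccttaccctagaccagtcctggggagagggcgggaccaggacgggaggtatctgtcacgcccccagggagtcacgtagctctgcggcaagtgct
Aldh1l1, chr6:90550543-90550842, plus strand: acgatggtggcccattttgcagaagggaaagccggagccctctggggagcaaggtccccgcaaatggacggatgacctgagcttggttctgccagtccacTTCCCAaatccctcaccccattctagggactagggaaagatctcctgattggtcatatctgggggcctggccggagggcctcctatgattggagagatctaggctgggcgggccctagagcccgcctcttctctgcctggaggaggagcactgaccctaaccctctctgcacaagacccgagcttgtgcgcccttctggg
Slc1a2, chr2:102706188-102706487, plus strand: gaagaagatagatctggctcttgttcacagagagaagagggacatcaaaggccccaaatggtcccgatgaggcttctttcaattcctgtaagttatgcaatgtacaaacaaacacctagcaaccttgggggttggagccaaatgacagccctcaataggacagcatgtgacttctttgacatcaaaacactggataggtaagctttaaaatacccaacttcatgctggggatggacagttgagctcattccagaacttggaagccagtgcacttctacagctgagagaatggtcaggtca
Apoe, chr7:19699139-19699438, minus strand: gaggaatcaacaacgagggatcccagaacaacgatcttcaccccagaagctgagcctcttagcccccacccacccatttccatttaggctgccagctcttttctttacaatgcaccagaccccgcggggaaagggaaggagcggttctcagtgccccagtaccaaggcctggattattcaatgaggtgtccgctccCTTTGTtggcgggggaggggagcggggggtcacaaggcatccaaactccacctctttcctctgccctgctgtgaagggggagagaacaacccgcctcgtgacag

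The *Aldoc* window held the NFI half-site letters at -146 from the RefSeq start site and the RBPJ letters at -127. The *Aldh1l1* window held the RBPJ letters on its minus strand at -150, and the *Apoe* window the SOX letters on its minus strand at -54. None of the 4 motifs was found in the *Nfia* and *Slc1a2* windows shown. Over the 13 windows of the members, NFI letters occurred in 2, SOX letters in 2, RBPJ letters in 5 and STAT letters in 3. Of all 32851 promoters of this length, 14.1% held the NFI letters, 18.7% the SOX letters, 25.6% the RBPJ letters and 8.30% the STAT letters. A match is a description of letters and not of a bound site.

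When *Fzd3* mutants were compared with control, 7 of the 10 genes passed a limma adjusted *P* of 0.05, against 29.8% of all genes tested. The members fell into opposite directions, with 4 lower (*Nfia*, *Nfib*, *Sox9* and *Aldoc*) and 3 higher (*Apoe*, *Aldh1l1* and *Slc1a2*), whereas 14.8% of all genes were lower and 15.0% higher. The libraries of both genotypes did not overlap for 5 of 10 members, against 43.8% of all genes. The median log2 fold change of the members was -0.03, and that of all genes -0.00056. Removal of 1 library lowered the count of 7 to 4 when it was *Fzd3* mutant 1 or 2 or control 1 or 2, and the range over single removals was 4 to 8. In bulk cortex, fewer cells of a type and less RNA per cell cannot be told apart.

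**Figure D1:**
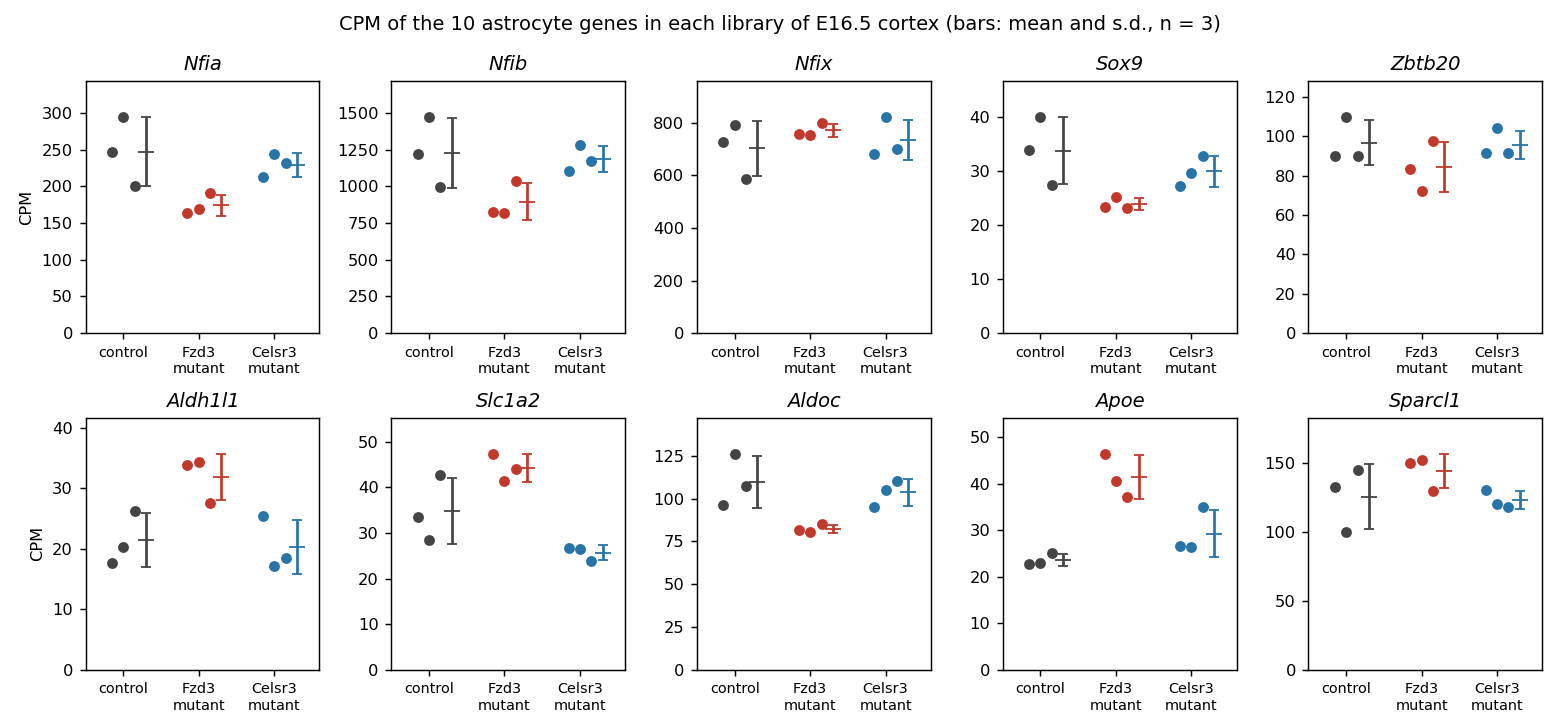
RNA level of each of the 10 genes in CPM, with 1 panel per gene and a vertical axis that starts at 0. Dots are single libraries of control, *Fzd3* mutant and *Celsr3* mutant cortex, and bars give the mean and s.d. (n = 3). *Nfia*, *Sox9* and *Aldoc* lie lower, and *Apoe* and *Aldh1l1* higher, in all *Fzd3* mutant libraries than in all controls.

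*Nfia* encodes the NFI factor that opens the gliogenic phase in neural progenitors. It was at 248, 295 and 200.1 CPM in controls, 164, 169 and 191 CPM in *Fzd3* mutants and 212, 244 and 232 CPM in *Celsr3* mutants. All *Fzd3* mutant libraries lay below all controls and all *Celsr3* mutants, while the *Celsr3* mutants lay within the span of the controls. The mean fell by 29.4% in *Fzd3* mutants (log2 fold change -0.49 ± 0.115 s.e., limma adjusted *P* = 0.00886, 3 of 3 libraries lower). Without moderation of variances the adjusted *P* was 0.0660, in a range of 0.00070 to 0.0660 over the alternatives, and no single library decided the call.

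*Nfib*, a close relative that acts in both glia and cortical neurons, was at 1220.2, 1472 and 994 CPM in controls, 826, 815 and 1039 CPM in *Fzd3* mutants and 1107, 1281 and 1170.2 CPM in *Celsr3* mutants. *Fzd3* mutants 1 and 2 lay below every control, but *Fzd3* mutant 3 exceeded control 3. The mean fell by 27.3% (log2 fold change -0.45 ± 0.129 s.e., limma adjusted *P* = 0.0226). The call was lost without *Fzd3* mutant 1 (adjusted *P* = 0.0867), *Fzd3* mutant 2 (0.0859), control 1 (0.0617) or control 2 (0.0786), within a range of 0.00341 to 0.109 over the alternatives.

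*Nfix*, which acts later in progenitor differentiation, did not follow the other NFI genes. It was at 729, 794 and 588 CPM in controls, 759.6, 755 and 801 CPM in *Fzd3* mutants and 680.1, 823 and 700.3 CPM in *Celsr3* mutants. The 3 genotypes overlapped. The log2 fold change in *Fzd3* mutants was 0.14 (95% confidence interval -0.07 to 0.36, limma adjusted *P* = 0.302).

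The mixture of NFI genes was therefore also expressed in shares. The share of *Nfix* in the summed CPM per kb of the 3 NFI genes was 48.7%, 46.3% and 48.5% in controls, 59.5%, 59.5% and 55.6% in *Fzd3* mutants, and for *Celsr3* mutants it was 49.7%, 50.9% and 48.9%. Each *Fzd3* mutant library had a higher share than all 6 others. The share of *Nfib* was 40.1%, 42.2% and 40.3% in controls, 31.8%, 31.6% and 35.4% in *Fzd3* mutants, and for *Celsr3* mutants it was 39.8%, 38.9% and 40.2%. That of *Nfia* was 11.2%, 11.6% and 11.1% in controls, 8.68%, 8.97% and 8.95% in *Fzd3* mutants, and for *Celsr3* mutants it was 10.5%, 10.2% and 10.9%. *Fzd3* mutants lay lowest for both. The summed NFI level in CPM per kb was 203, 233 and 165 for controls, 174, 173 and 196 for *Fzd3* mutants and 186, 220.0 and 195 for *Celsr3* mutants, so the sums overlapped where the shares did not. The shares were chosen after the values were seen and carry no test.

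**Figure D2:**
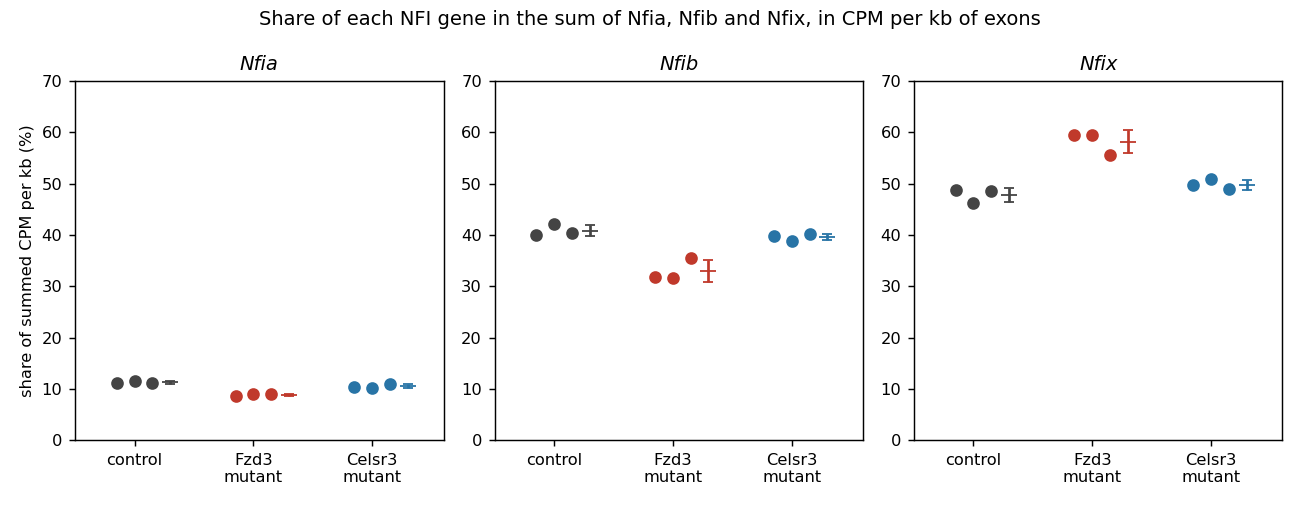
Share of each NFI gene in the summed level of *Nfia*, *Nfib* and *Nfix*, in percent of CPM per kb of exons. Each panel shows 1 gene with a dot per library, with the mean and s.d. of 3 libraries. *Nfix* lies higher in *Fzd3* mutants (58.2 ± 2.25%) than in controls (47.8 ± 1.37%) and *Celsr3* mutants (49.8 ± 0.983%).

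*Sox9* encodes a factor of neural stem cell maintenance and glial specification that acts with NFIA. It was at 33.9, 39.9 and 27.5 CPM in controls, 23.4, 25.2 and 23.1 CPM in *Fzd3* mutants and 27.2, 29.7 and 32.8 CPM in *Celsr3* mutants. *Fzd3* mutants were below all other libraries and varied little among themselves (s.d. 1.11 CPM). The mean fell by 29.2% (log2 fold change -0.47 ± 0.116 s.e., limma adjusted *P* = 0.0105). No single library decided this call, which was lost only without moderation of variances (adjusted *P* = 0.0627, range 0.00117 to 0.0627).

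*Zbtb20*, a zinc-finger factor that promotes astrocyte production from late progenitors, was at 90.0, 109.7 and 90.1 CPM in controls, 83.5, 72.3 and 97.4 CPM in *Fzd3* mutants and 91.6, 104 and 91.6 CPM in *Celsr3* mutants. *Fzd3* mutants 1 and 2 lay below the other libraries and *Fzd3* mutant 3 among them. The log2 fold change in *Fzd3* mutants was -0.20 (95% confidence interval -0.43 to 0.04, limma adjusted *P* = 0.184). It passed without *Fzd3* mutant 3, with an adjusted *P* of 0.0384, and under none of the other 19 alternatives (up to 0.553).

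Among the astrocyte products, *Apoe* had the largest log2 fold change of the 10 members in *Fzd3* mutants against control. It encodes the main lipid carrier that astrocytes release and is also made by microglia. It was at 22.8, 23.0 and 25.1 CPM in controls, 46.5, 40.7 and 37.2 CPM in *Fzd3* mutants and 26.6, 26.3 and 35.1 CPM in *Celsr3* mutants. All *Fzd3* mutants exceeded all *Celsr3* mutants, which exceeded all controls. The mean in *Fzd3* mutants rose by 75.2% (log2 fold change 0.79 ± 0.111 s.e., limma adjusted *P* = 0.000493), and the adjusted *P* stayed between 0.00010 and 0.0143 under the 20 alternatives.

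*Aldh1l1*, the folate enzyme widely used as an astrocyte marker, was at 17.6, 20.4 and 26.3 CPM in controls, 33.8, 34.4 and 27.6 CPM in *Fzd3* mutants and 25.4, 17.1 and 18.4 CPM in *Celsr3* mutants. *Fzd3* mutants exceeded all other libraries, although *Fzd3* mutant 3 came close to control 3. The mean rose by 48.9% (log2 fold change 0.58 ± 0.163 s.e., limma adjusted *P* = 0.0215). The call was lost without *Fzd3* mutant 1 (adjusted *P* = 0.0767), *Fzd3* mutant 2 (0.0771), control 1 (0.0863) or control 2 (0.0631), in a range of 0.00657 to 0.102 over the alternatives.

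*Slc1a2*, the glutamate transporter GLT-1, was at 33.4, 28.4 and 42.8 CPM in controls, 47.4, 41.4 and 44.0 CPM in *Fzd3* mutants and 26.8, 26.6 and 23.8 CPM in *Celsr3* mutants. Control 3 exceeded *Fzd3* mutant 2, and all *Celsr3* mutants lay below all controls. The mean in *Fzd3* mutants rose by 26.9% (log2 fold change 0.36 ± 0.121 s.e., limma adjusted *P* = 0.0444). This was the least stable call, lost under 10 of 20 alternatives (range of adjusted *P* 0.00227 to 0.157). Single removals that ended it were *Fzd3* mutants 1 (0.147), 2 (0.0629) and 3 (0.0780), *Celsr3* mutants 1 (0.0552) and 2 (0.0577), and controls 1 (0.115) and 2 (0.157).

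*Aldoc*, the brain aldolase of glycolysis that marks astrocytes and radial glia, was at 96.0, 126 and 107 CPM in controls, 81.8, 80.6 and 85.0 CPM in *Fzd3* mutants and 95.2, 105 and 110.5 CPM in *Celsr3* mutants. *Fzd3* mutants lay below all other libraries. The mean fell by 25.0% (log2 fold change -0.40 ± 0.0865 s.e., limma adjusted *P* = 0.00540), with adjusted *P* between 0.00232 and 0.0454 under the alternatives. It was the only product of the 5 to fall.

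*Sparcl1*, which encodes the synaptogenic matrix protein hevin and is also made by vessels and neurons, was at 132, 99.6 and 145 CPM in controls, 150.2, 152 and 129.8 CPM in *Fzd3* mutants and 130.3, 119.9 and 118 CPM in *Celsr3* mutants. The genotypes overlapped. The log2 fold change in *Fzd3* mutants was 0.21 (95% confidence interval -0.04 to 0.46, limma adjusted *P* = 0.188). Without control 3 it passed, with an adjusted *P* of 0.0471, and under none of the other 19 alternatives (up to 0.658).

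**Figure D3:**
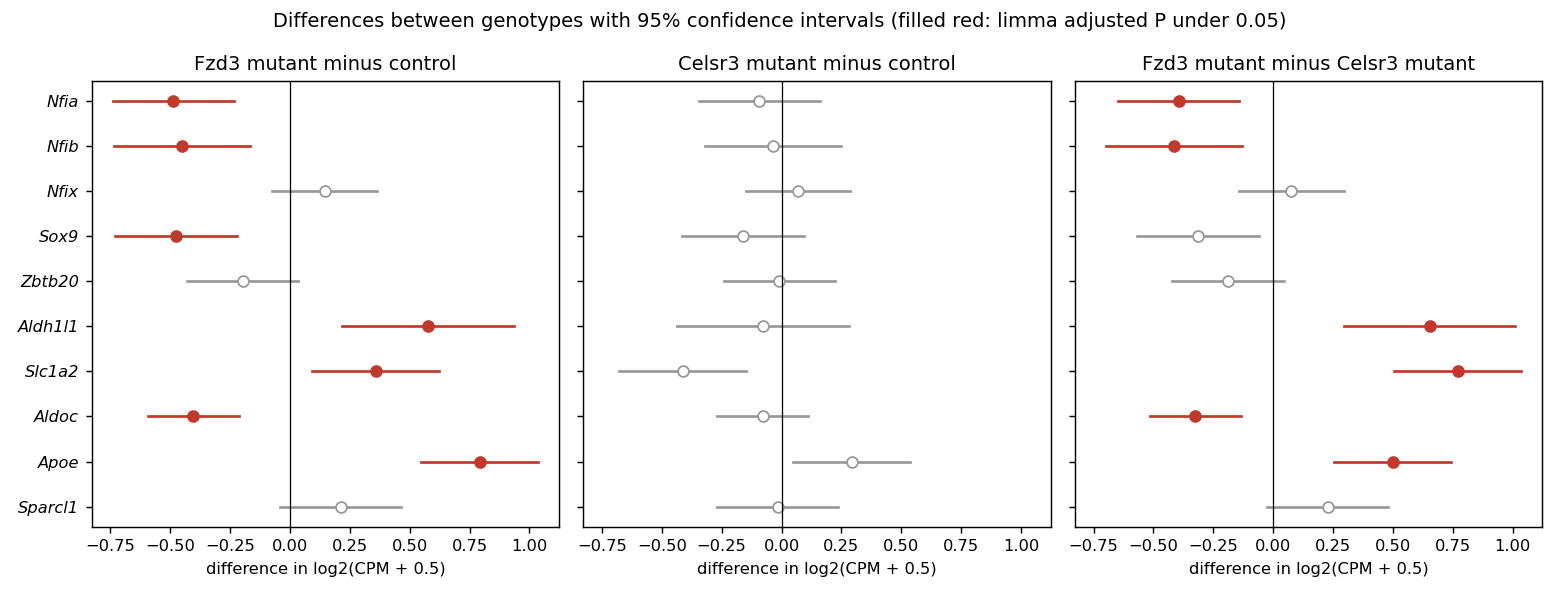
Log2 fold change of the 10 genes in the 3 comparisons of genotypes, with 95% confidence intervals from limma. Filled red points have an adjusted *P* under 0.05. In *Fzd3* mutants against control, *Nfia*, *Nfib*, *Sox9* and *Aldoc* lie below 0 and *Aldh1l1*, *Slc1a2* and *Apoe* above it, and in *Celsr3* mutants against control no point is filled.

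By role, 3 of 5 transcription factors fell by limma and the other 2 did not pass, with a median log2 fold change of -0.45. Of the 5 products, 3 rose and 1 fell, with a median of 0.36. Of all genes 14.8% were lower and 15.0% higher. Depth also ordered some values. Among controls, and among *Fzd3* mutants, the libraries with more reads had more *Nfia*, which was not so among *Celsr3* mutants. *Fzd3* mutant 3 and control 1 had nearly equal depth, and between these 2 libraries the log2 ratio was -0.37 for *Nfia*, -0.23 for *Nfib*, 0.14 for *Nfix*, -0.54 for *Sox9* and 0.11 for *Zbtb20*. It was 0.63 for *Aldh1l1*, 0.39 for *Slc1a2*, -0.17 for *Aldoc*, 0.69 for *Apoe* and -0.03 for *Sparcl1*. The ratios of *Zbtb20* and *Sparcl1*, which did not pass, had the opposite sign to their log2 fold changes between the groups, and those of *Nfia*, *Nfib*, *Nfix*, *Aldoc* and *Apoe* were smaller in size than these. With log2 reads as a covariate, an alternative chosen after seeing the data, all 7 members passed (*Nfia*, log2 fold change -0.42, limma adjusted *P* = 0.00239).

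When *Celsr3* mutants were compared with control, 0 of the 10 genes passed by limma, against 0.307% of all genes (45 genes, with 0.130% of all genes higher and 0.177% lower). At an unadjusted *P* under 0.05 there were 2 members and 800 genes. The libraries did not overlap for 2 of 10 members, *Slc1a2* and *Apoe*, against 10.4% of all genes. The median log2 fold change was -0.06 for the members. Under all 20 alternatives the count of members stayed at 0.

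*Slc1a2* had a mean of 25.7 ± 1.66 CPM in *Celsr3* mutants and 34.9 ± 7.29 CPM in controls (n = 3 each). The log2 fold change was -0.41, with a 95% confidence interval of -0.68 to -0.15 and an adjusted *P* by limma of 0.505 (range over alternatives 0.0857 to 0.999). It was -0.20 with log2 reads as a covariate and -0.28 with replicate number as a block. With 1 library left out it ran from -0.55 to -0.26. *Apoe* had a mean of 29.3 ± 4.97 CPM in *Celsr3* mutants, with the highest value in *Celsr3* mutant 4, the library with the meningeal markers. Its log2 fold change was 0.29 (95% confidence interval 0.05 to 0.54, limma adjusted *P* = 0.788), and 0.16 without that library. That of *Slc1a2* without it was -0.36.

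The intervals of the other 8 members included 0. For the transcription factors, the log2 fold change was -0.09 for *Nfia* (-0.35 to 0.16), -0.04 for *Nfib* (-0.32 to 0.25), 0.07 for *Nfix* (-0.15 to 0.29), -0.16 for *Sox9* (-0.41 to 0.09) and -0.01 for *Zbtb20* (-0.24 to 0.22). These values moved with the fit. With log2 reads as a covariate, the log2 fold change was -0.28 for *Nfia* (limma adjusted *P* = 0.557, the lowest of a range up to 1.00), -0.23 for *Nfib* (0.860, range up to 1.00) and -0.34 for *Sox9* (0.445, range up to 1.00). The same fit gave -0.42, -0.38 and -0.41 in *Fzd3* mutants against control. For *Aldh1l1* the log2 fold change was -0.08 (-0.44 to 0.28), for *Aldoc* -0.08 (-0.27 to 0.11) and for *Sparcl1* -0.02 (-0.27 to 0.24).

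The difference between the mutants was also tested directly, in a comparison that shares the *Fzd3* mutant libraries with the first comparison and the *Celsr3* mutant libraries with the second. Of the 10 genes, 6 passed by limma, against 29.6% of all genes. *Slc1a2*, *Aldh1l1* and *Apoe* were higher in *Fzd3* mutants (15.3% of all genes were) and *Nfia*, *Nfib* and *Aldoc* lower (14.3%). Libraries did not overlap for 7 of 10 members, against 44.9% of all genes, and the median log2 fold change of the members was -0.06.

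*Slc1a2* differed most, with a log2 fold change of 0.77 (limma adjusted *P* = 0.00105, range over alternatives 0.00014 to 0.0212). *Aldh1l1* differed by 0.65 on the log2 scale (limma adjusted *P* = 0.0117) and *Apoe* by 0.50 (0.00663). *Nfia* differed by -0.39 (0.0245), *Nfib* by -0.42 (0.0321) and *Aldoc* by -0.33 (0.0160). *Sox9* missed the threshold at -0.31 (0.0615), although every *Fzd3* mutant was below every *Celsr3* mutant. It passed with only the 2 genotypes compared (0.0153) or without control 2 (0.0257) or control 3 (0.0174), in a range of 0.0153 to 0.735. Its log2 fold change shrank to -0.07 (0.735) with log2 reads as a covariate and to -0.17 (0.294) with replicate number as a block. *Zbtb20*, at -0.19 (0.208), passed without *Fzd3* mutant 3 (0.0429), in a range of 0.0429 to 0.798. *Nfix* differed by 0.08 (0.607) and *Sparcl1* by 0.23 (0.159). *Sparcl1* passed with only the 2 genotypes compared (0.0304) or without control 2 (0.0282), in a range of 0.0282 to 0.872.

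The calls of the 3 members lower in *Fzd3* mutants were each lost without *Fzd3* mutant 1, *Fzd3* mutant 2, *Celsr3* mutant 2 or *Celsr3* mutant 4. In that order the adjusted *P* by limma became 0.0908, 0.0781, 0.0847 and 0.0645 for *Nfia*, 0.113, 0.114, 0.107 and 0.0690 for *Nfib*, and 0.0528, 0.0550, 0.0504 and 0.0629 for *Aldoc*. Over all alternatives it ran from 0.00313 to 0.417 for *Nfia*, 0.00947 to 0.488 for *Nfib* and 0.00356 to 0.221 for *Aldoc*. The count of 6 became 3 under each of these removals. With log2 reads as a covariate, 1 member passed, *Slc1a2* (0.48, adjusted *P* = 0.00861), while *Nfia* was at -0.14 (0.417), *Aldh1l1* at 0.43 (0.188, range 0.00357 to 0.188) and *Apoe* at 0.48 (0.0665, range 0.00149 to 0.0665). As depth did not overlap between the mutants, depth and genotype cannot be told apart in this comparison.

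Other astrocyte genes also moved both ways. Of the 21 listed, 7 rose and 2 fell in *Fzd3* mutants against control, and 7 were higher and 2 lower in *Fzd3* than in *Celsr3* mutants. In *Celsr3* mutants against control 0 passed by limma, and 0.307% of all genes did. At an unadjusted *P* under 0.05 by limma there were 2 of the 21, and 800 of all 14670 genes. In both comparisons with *Fzd3* mutants 42.9% of the list passed, against 29.8% and 29.6% of all genes. Their summed level was 873, 938 and 920.4 CPM in controls, 954, 958 and 893 CPM in *Fzd3* mutants and 845, 895 and 925 CPM in *Celsr3* mutants, so the sums overlapped. The median log2 fold change in *Fzd3* mutants against control was -0.04.

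*Hepacam*, a glial adhesion protein, was at 1.10, 1.18 and 1.08 CPM in controls, 3.79, 3.65 and 2.52 CPM in *Fzd3* mutants and 1.40, 1.49 and 0.683 CPM in *Celsr3* mutants. It was the gene of this list with the largest rise (log2 fold change 1.22, limma adjusted *P* = 0.00166). *Slc6a11*, the GABA transporter GAT-3, rose by 0.84 (0.0198). That call was lost without *Fzd3* mutant 1 (0.0826), *Fzd3* mutant 2 (0.0535), control 1 (0.0682) or control 2 (0.0773), in a range of 0.00516 to 0.102. *Id4*, an inhibitor of helix-loop-helix factors in progenitors, fell (log2 fold change -0.79, 8.38e-05), as did *Fgfr3*, a growth factor receptor of radial glia and astrocytes (-0.55, 0.00505).

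Against *Celsr3* mutants the same 4 genes passed by limma, with log2 fold changes of 1.20 for *Hepacam*, 1.12 for *Slc6a11*, -0.70 for *Id4* and -0.56 for *Fgfr3*. With log2 reads as a covariate 2 of these calls were lost, with *Slc6a11* at 0.64 (adjusted *P* = 0.0984, range over alternatives 0.00149 to 0.0984) and *Fgfr3* at -0.35 (0.0950, range 0.00135 to 0.0950). *Slc6a11* was also lost without moderation of variances (0.0503). *Slc1a3*, the glutamate transporter GLAST and the most abundant of the 21, was at 121, 127 and 124 CPM in controls, 119, 124 and 122 CPM in *Fzd3* mutants and 114, 109 and 108 CPM in *Celsr3* mutants. The *Celsr3* mutants lay below the other 6 libraries, with a log2 fold change against control of -0.17 (limma adjusted *P* = 0.257).

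*Fabp7*, a fatty acid binding protein of radial glia, was at 447, 435 and 506 CPM in controls, 429, 463 and 343 CPM in *Fzd3* mutants and 437, 414 and 410 CPM in *Celsr3* mutants, and *Fzd3* mutant 3 was lowest. *Gja1*, which encodes connexin 43, was at 10.7, 10.5 and 10.5 CPM in controls, 10.7, 8.94 and 8.93 CPM in *Fzd3* mutants and 9.35, 8.71 and 23.1 CPM in *Celsr3* mutants. The high value belongs to *Celsr3* mutant 4, the library with the meningeal markers. *Slc1a2* as a share of *Slc1a2* and *Slc1a3* per kb, chosen after the values were seen, was 15.2%, 12.7% and 18.4% in controls, 20.6%, 17.8% and 19.0% in *Fzd3* mutants, and for *Celsr3* mutants it was 13.2%, 13.7% and 12.6%. Control 3 reached the *Fzd3* mutants.

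**Figure D4:**
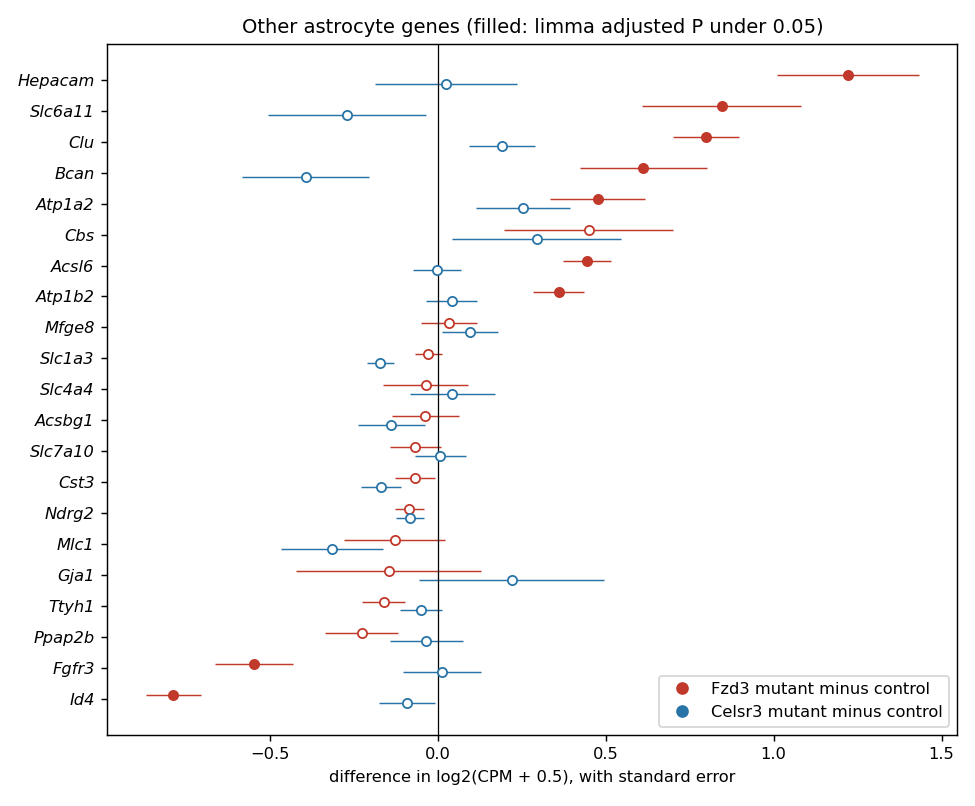
Log2 fold change against control of the 21 other astrocyte genes listed, in *Fzd3* mutants and in *Celsr3* mutants, with standard errors. Filled points have a limma adjusted *P* under 0.05. *Hepacam* at 1.22 and *Id4* at -0.79 are the ends of the range in *Fzd3* mutants, where 7 genes are filled above 0 and 2 below it.

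Regulators of the gliogenic switch, all 26 of which were listed, were mostly lower where they passed. The list was not split by whether a gene promotes or restrains gliogenesis, so its counts and sum give no direction for gliogenesis. *Sox2* and *Hes5* are counted again in the radial glia list below. In *Fzd3* mutants against control 12 fell and 2 rose, 53.8% of the list against 29.8% of all genes, and the median log2 fold change was -0.17. Against *Celsr3* mutants 11 were lower and 2 higher, where 29.6% of all genes passed, 14.3% lower and 15.3% higher. In *Celsr3* mutants against control 0 passed by limma, and 0.307% of all genes did. At an unadjusted *P* under 0.05 by limma there were 2 of the 26, and 800 of all 14670 genes. The sum was 2252, 2367 and 2182 CPM in controls, 1959, 1918 and 1972 CPM in *Fzd3* mutants and 2198, 2308 and 2302 CPM in *Celsr3* mutants, with *Dnmt1* the most abundant. All *Fzd3* mutants were below all others.

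*Notch1*, the receptor whose signal keeps radial glia and primes gliogenesis, fell (log2 fold change -0.57, limma adjusted *P* = 0.00288), and so did its target *Hes5* (-0.66, 0.00227). *Lifr*, a receptor of the gliogenic cytokines, rose by 0.56 (0.00114), and *Jak1*, the kinase below it, by 0.16 (0.0171). The call of *Jak1* was lost without *Fzd3* mutant 1 (0.0744) or control 2 (0.0620), with a range of 0.00960 to 0.0744. Against *Celsr3* mutants the differences on the log2 scale were -0.62 for *Notch1*, -0.60 for *Hes5*, 0.51 for *Lifr* and 0.24 for *Jak1*, all past the threshold. With log2 reads as a covariate *Hes5* was at -0.50 and no longer passed (limma adjusted *P* = 0.0701, range over alternatives 0.00348 to 0.0701).

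Progenitor markers were measured beside these genes. Of 11 listed radial glia markers (of 12, *Fam107a* was not analysed here), 6 fell and 1 rose in *Fzd3* mutants against control, 63.6% of the list against 29.8% of all genes, with a median log2 fold change of -0.37. *Pax6* fell by 0.70 and *Nes* by 0.67 on the log2 scale (limma adjusted *P* = 0.000120 and 0.000325). *Tnc*, a matrix protein, rose by 0.39 (0.0146), but not without *Fzd3* mutant 1 (0.0544) or control 1 (0.0592), in a range of 0.00437 to 0.0833. The sum was 2226, 2355 and 2282 CPM in controls, 1960.3, 2012 and 1951 CPM in *Fzd3* mutants and 2076, 2202 and 2179 CPM in *Celsr3* mutants, with *Ptprz1* the most abundant. *Fzd3* mutants were below all others.

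All 8 markers of intermediate progenitors fell (14.8% of all genes did), with a median of -0.64. Their sum was 483, 519 and 443 CPM in controls, 287, 310.5 and 344 CPM in *Fzd3* mutants and 486, 539 and 547 CPM in *Celsr3* mutants, with *Eomes* the most abundant. *Neurog1* fell by 1.49 (limma adjusted *P* = 0.00126) and *Neurog2* by 0.86 (8.46e-05). The *Fzd3* mutants, which had less *Nfia*, *Sox9* and *Aldoc*, thus also had lower sums of both progenitor lists, and their part in the results was not tested.

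Of the 11 listed projection neuron markers (*Tubb3* was not analysed here), 6 fell and 3 rose in *Fzd3* mutants, 81.8% against 29.8% of all genes, with a median log2 fold change of -0.14. *Sox5* fell by 0.52 (limma adjusted *P* = 0.00440) and *Bcl11b* by 0.46 (0.000351), both genes of deep layers, while *Snap25*, of synaptic vesicle release, rose by 0.35 (0.000200). Sums were 7354, 7393 and 7025 CPM in controls, 7458, 7227 and 7515 CPM in *Fzd3* mutants and 7435, 7486 and 7146 CPM in *Celsr3* mutants. The genotypes overlapped.

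Of 9 listed interneuron markers (of 10, *Nkx2-1* was not analysed here), 0 passed by limma in *Fzd3* mutants against control, also at an unadjusted *P* under 0.05. Their sum was 272, 275 and 308 CPM in controls, 320.3, 297 and 253 CPM in *Fzd3* mutants and 274, 236 and 221 CPM in *Celsr3* mutants, with *Dlx1* the most abundant. Of 6 markers of oligodendrocyte precursors, 3 rose (15.0% of all genes did), with a median of 0.81 and *Pdgfra* the most abundant. The sums were 32.4, 29.6 and 42.5 CPM in controls, 79.0, 69.3 and 41.2 CPM in *Fzd3* mutants and 41.3, 29.6 and 34.4 CPM in *Celsr3* mutants. *Olig1* rose by 1.08 (limma adjusted *P* = 0.00375). *Olig2* rose by 0.98 (0.0309), lost without *Fzd3* mutant 1 (0.122), *Fzd3* mutant 2 (0.116), control 1 (0.0973) or control 2 (0.0869), in a range of 0.00326 to 0.125.

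*Aldh1l1* and *Slc6a11* were, like these markers, highest in *Fzd3* mutants 1 and 2. The same held for *Apoe*, for *Hepacam* and for the sum of microglial markers given below, so the pattern is not particular to oligodendrocyte precursors. Whether oligodendrocyte precursors take part in the rise of *Aldh1l1*, *Slc1a2* or *Apoe* was not tested.

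Markers of microglia, vessels, meninges and blood were measured as well. Of 10 microglial markers, 5 rose in *Fzd3* mutants (15.0% of all genes did), with a median of 0.47 and *Csf1r* the most abundant. Their sum was 44.9, 52.1 and 51.4 CPM in controls, 81.0, 75.9 and 56.7 CPM in *Fzd3* mutants and 51.2, 55.1 and 64.6 CPM in *Celsr3* mutants. *Trem2*, a receptor of microglia that binds lipoproteins, rose by 1.00 (limma adjusted *P* = 0.00128). *C1qc* rose by 0.74 (0.0197), lost without *Fzd3* mutant 1 (0.0694), *Fzd3* mutant 2 (0.0597) or control 1 (0.0766), in a range of 0.00864 to 0.0766. Within *Fzd3* mutants the libraries had the same order for this sum and for *Apoe*, and in *Celsr3* mutants both were highest in replicate 4. The sums of endothelial and of meningeal markers, given below, showed the same pattern, so it is not particular to microglia. The part of microglia in the level of *Apoe* was not tested.

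Of 10 markers of endothelial cells and pericytes, 3 rose, with a median of 0.34. These 3 are 30.0% of the list, and 29.8% of all genes passed, 15.0% being higher and 14.8% lower, and the list is too short to read more from it. Sums were 156, 156 and 158 CPM in controls, 217, 211 and 191 CPM in *Fzd3* mutants and 171, 151 and 214 CPM in *Celsr3* mutants, with *Kdr* the most abundant. *Flt1* rose by 0.85 (limma adjusted *P* = 0.000540) and *Kdr* by 0.58 (0.00490). Of the 7 listed meningeal markers (*Lum* and *Aldh1a2* were not analysed here), 1 rose, *Ogn*, by 1.46 (0.00731), a call lost without moderation of variances (0.0543, range 0.000175 to 0.0543). This is 14.3% of the list, no more than the 15.0% of all genes that were higher. The sum of the 7 markers was 13.4, 17.1 and 12.2 CPM in controls, 23.8, 23.0 and 17.4 CPM in *Fzd3* mutants and 17.6, 17.0 and 182 CPM in *Celsr3* mutants. In *Fzd3* mutants the median meningeal log2 fold change was 0.15, and in *Celsr3* mutants 1.24, which became 0.32 without *Celsr3* mutant 4.

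Of 8 blood genes, 1 fell, the embryonic globin *Hbb-y*, by 1.05 (limma adjusted *P* = 0.0331). This is 12.5% of the list, no more than the 14.8% of all genes that were lower or the 29.8% that passed. It lost the call without any 1 of *Fzd3* mutants 1 (0.0772), 2 (0.0521) and 3 (0.0894) and controls 1 (0.0667) and 2 (0.127), in a range of 0.0167 to 0.127. Sums were 1767, 1919.6 and 2041 CPM in controls, 2288, 2445 and 1570.2 CPM in *Fzd3* mutants and 2418, 1585 and 2539 CPM in *Celsr3* mutants, with *Hba-a1* the most abundant and a median of 0.10 in *Fzd3* mutants. The 7 markers of choroid plexus were not analysed here. How far vessels, meninges or blood take part in the levels of *Apoe*, *Sparcl1* or *Slc1a2* was not tested.

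Of 6 listed genes of medial pallium and hippocampus (of 8, *Wnt8b* and *Lmx1a* were not analysed here), 3 fell and 1 rose, 66.7% against 29.8% of all genes, with a median of -0.49. The sums, led by *Emx2*, were 45.4, 50.7 and 41.4 CPM in controls, 40.6, 41.5 and 42.1 CPM in *Fzd3* mutants and 41.6, 50.8 and 48.6 CPM in *Celsr3* mutants. *Prox1* rose by 0.99 (limma adjusted *P* = 0.000410). *Lhx9* fell by 0.68 (0.0212), lost without *Fzd3* mutant 2 (0.0695), *Fzd3* mutant 3 (0.0606) or control 3 (0.0699), in a range of 0.00292 to 0.0699. *Dmrta2* fell by 0.57 (0.0305), lost without *Fzd3* mutant 1 (0.117), *Fzd3* mutant 2 (0.0506), control 1 (0.101) or control 2 (0.117), in a range of 0.00330 to 0.117. Whether the dissected area differed between libraries was not tested.

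**Figure D5:**
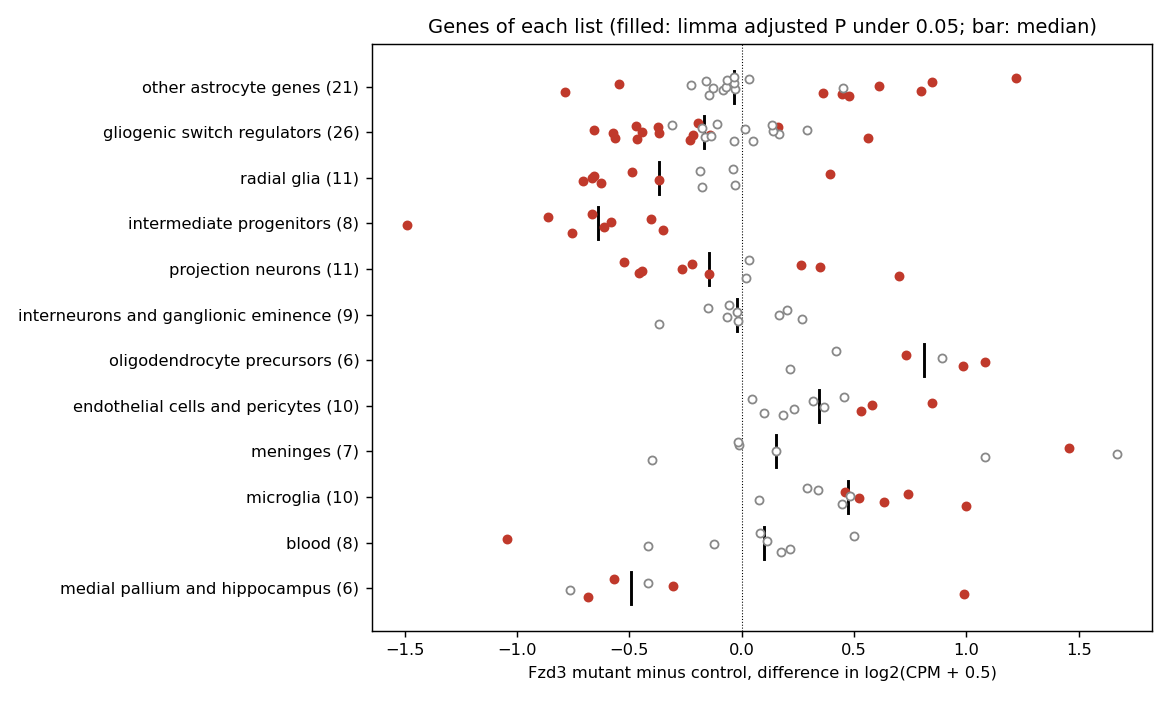
Log2 fold change of *Fzd3* mutants against control for each listed gene of 12 gene lists, with 1 dot per gene filled red where the limma adjusted *P* is under 0.05, and a black bar at the median of each list. Intermediate progenitor genes all lie below 0, with a median of -0.64, and oligodendrocyte precursor genes have a median of 0.81.

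In *Celsr3* mutants against control, 0 genes of any of these cell type lists passed by limma, and 0.307% of all genes did. At an unadjusted *P* under 0.05 by limma there were 800 of all 14670 genes. The lists had 3 each for radial glia, projection neurons and interneurons, and 2 each for intermediate progenitors, endothelial cells, meninges and microglia. There was 1 for medial pallium, and 0 for oligodendrocyte precursors and blood. The lists are too short to read more from these counts. Against *Celsr3* mutants, where 29.6% of all genes passed (15.3% higher and 14.3% lower), the radial glia list had 6 genes lower and 3 higher in *Fzd3* mutants, the intermediate progenitor list 8 lower, the projection neuron list 6 lower and 3 higher, and the interneuron list 3 higher. The oligodendrocyte precursor list had 3 higher, the endothelial list 2 higher and the microglial list 2 higher. The meningeal list had 0 (1 at an unadjusted *P* under 0.05 by limma, against 6006 of all 14670 genes). The blood list had 1 lower, and the medial pallium list 4 lower and 1 higher. *Pax6* differed by -0.64, *Tnc* by 0.66, *Neurog1* by -1.61, *Neurog2* by -0.93, *Sox5* by -0.57, *Fezf2* by -0.34 and *Snap25* by 0.39 on the log2 scale. *Olig2* differed by 1.32, *Olig1* by 1.23, *Flt1* by 0.81, *Prox1* by 1.00 and *Dmrta2* by -0.79. No removal of a single library ended these calls, but log2 reads as a covariate ended 3. *Olig2* was then at 0.78 (limma adjusted *P* = 0.155, range over alternatives 0.00114 to 0.155), *Dmrta2* at -0.44 (0.131, range 0.00163 to 0.131) and *Fezf2* at -0.21 (0.0502, range 0.000978 to 0.0502). *Olig2* was also lost without moderation of variances (0.0620).

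The remaining genes of these lists with the largest differences between the mutants lost the call when 1 library was left out. For each gene this held for more than 1 library, in part for controls, which enter only through the shared spread estimate. The losses therefore do not show that a difference rests on 1 library. *Hopx* differed by 0.37, *Gad1* by 0.54, *Lhx6* by 0.29, *Kdr* by 0.43, *C1qc* by 0.61, *Aif1* by 0.56, *Hbb-y* by -1.07 and *Dmrt3* by -0.90. Without *Celsr3* mutant 4 the limma adjusted *P* was 0.0570 for *Gad1*, 0.165 for *Lhx6*, 0.115 for *Hbb-y* and 0.126 for *Dmrt3*. Without *Celsr3* mutant 2 it was 0.120 for *Hopx*, 0.0511 for *Gad1*, 0.103 for *Lhx6*, 0.0637 for *Kdr* and 0.136 for *Dmrt3*. Without *Celsr3* mutant 1 it was 0.124 for *Hopx*, 0.146 for *C1qc*, 0.0797 for *Aif1* and 0.0800 for *Hbb-y*.

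Removal of *Fzd3* mutant 1 gave 0.0946 for *Hopx*, 0.0673 for *Gad1*, 0.161 for *Lhx6*, 0.0831 for *Kdr*, 0.127 for *C1qc*, 0.0729 for *Hbb-y* and 0.115 for *Dmrt3*. Removal of *Fzd3* mutant 2 gave 0.138 for *Hopx*, 0.163 for *Lhx6*, 0.0767 for *Kdr*, 0.111 for *C1qc*, 0.0953 for *Aif1* and 0.0817 for *Dmrt3*. Removal of *Fzd3* mutant 3 gave 0.0647 for *Hopx*, 0.0532 for *C1qc*, 0.0833 for *Hbb-y* and 0.0570 for *Dmrt3*. Removal of control 1 gave 0.0545 for *Hopx*, 0.0630 for *Lhx6* and 0.0538 for *Dmrt3*, of control 2 0.0544 for *Hopx* and 0.0531 for *Lhx6*, and of control 3 0.0547 for *Lhx6* and 0.0505 for *C1qc*. With log2 reads as a covariate all of these calls but that of *Hopx* were lost. The log2 fold change was then 0.49 for *Kdr*, 0.61 for *C1qc* and 0.54 for *Aif1*, near the values without the covariate. It was smaller in size than without the covariate for *Gad1* (0.24), *Lhx6* (0.21), *Hbb-y* (-0.46) and *Dmrt3* (-0.47). The range over alternatives was 0.0305 to 0.138 for *Hopx*, 0.00792 to 0.268 for *Gad1*, 0.00480 to 0.341 for *Lhx6*, 0.00552 to 0.0978 for *Kdr*, 0.0318 to 0.193 for *C1qc*, 0.0217 to 0.149 for *Aif1*, 0.0120 to 0.434 for *Hbb-y* and 0.00549 to 0.418 for *Dmrt3*.

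The genes whose levels were most like those of *Nfia* and *Sox9* were sought among the 10019 genes whose mean reached 10 CPM. For *Nfia* they were *Nop9* (Pearson's r = 0.985 over 9 libraries), *Vangl2* (0.983) and *Nfib* (0.983). For *Sox9* they included *Ubr7* (0.964) and *Cog1* (0.957). As these genes were picked for the highest r, the values are high by selection. These libraries share their differences in depth and genotype, and the values describe these 9 libraries only.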

How the data were processed

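The authors deposited 1 table of CPM (read counts scaled to library size) for 14670 genes in 9 libraries, with a further scaling factor per library. The submitters' processing notes list FastQC, TopHat, Bowtie, TopHat2, Cufflinks 2.1.1 and edgeR 2.12 without roles, and annotation, counting and strand use are not given in the sources used here. All sample columns were used (0 not used), with groups and replicate numbers taken from the labels.

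Genes whose mean reached 0.5 CPM were fitted as log2(CPM + 0.5) in limma 3.58.1 (R 4.3.3) with 1 spread estimate over the 3 genotypes, a variance trend and Benjamini-Hochberg adjustment over all genes. The threshold was 0.05. All 14670 genes passed the filter, including the 10 members. Fold changes are on the log2(CPM + 0.5) scale, which understates changes of low genes. Named are all members, *Celsr3* and *Fzd3*, 6 later or shared astrocyte markers, and from each list the 2 largest increases and decreases past the threshold, with the most abundant gene. Some genes that meet this rule are not reported here. Members and lists were chosen with earlier results of these data known. Lists were members by role, other astrocyte genes, gliogenic switch regulators, radial glia, intermediate progenitors, projection neurons, interneurons, oligodendrocyte precursors, endothelial cells and pericytes, meninges, microglia, choroid plexus, blood, and medial pallium.

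Depth was estimated from the step between low values in each library, which is the CPM of 1 read. A floor of 3 reads was 0.0753 CPM in the shallowest library (control 3) and 0.0427 CPM in the deepest (*Celsr3* mutant 4), which covers counting error only. The fit was tested on simulated data for the comparison of *Fzd3* mutants with control. Of 200 changed genes among 14670, 199 were recovered, with 9 false calls. Recovery of differences as small as those of the members was not tested. Alternatives were other pseudocounts, filters, scalings, samples in the fit, a replicate block, variance moderation, removal of each library and, chosen after seeing the data, log2 reads as a covariate. The values checked were whole reads in every library (100.0% within 0.1 reads). Tests on read counts were not run, since each library had fewer low values than the check required. Positions and exon lengths are from GENCODE M21 (GRCm38), and promoters from RefSeq (GRCm38.p6). Tables were made with Python 3.11.15.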

Additional observations from a re-analysis of the deposited data

How the results depend on the processing

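In *Fzd3* mutants against control, the log2 fold changes of the 10 members kept their direction under all 20 alternatives, and in 175 of 200 cases their side of the limma threshold, with 23 calls lost and 2 gained. The 7 members past the threshold became 2 without moderation of variances, and 4 to 8 when 1 library was left out, while genes past it ranged from 2958 to 4312. In *Celsr3* mutants against control, 0 members passed throughout, whereas genes past the threshold were 29 with the replicate block, 24 without moderation and 39 to 53 with 1 library left out. In *Fzd3* against *Celsr3* mutants, 6 members became 2 without moderation, 1 with log2 reads as a covariate and 3 to 8 with 1 library left out. Genes past the threshold were 1549 with that covariate and 2971 to 4471 with 1 library left out.

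With replicate number as a block, *Fzd3* mutants against control had 7 members and 3629 genes past the threshold, and *Fzd3* against *Celsr3* mutants 2 members (*Slc1a2* and *Apoe*) and 2101 genes. *Fzd3* mutants and controls with the same number deviated from their group means with correlations of -0.199 to -0.07. For the 2 numbers shared with *Celsr3* mutants, these were -0.08 to 0.192 with *Fzd3* mutants and -0.013 to 0.073 with controls. Such correlations cannot show whether libraries of the same number share a batch, which the labels do not give.

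Directions turned for small differences, all between -0.09 and 0.23 on the log2 scale. In *Celsr3* mutants against control, *Nfix* was at -0.0416 with the covariate, *Zbtb20* at 0.00191 with columns scaled to equal sums and 0.0516 with the block, *Aldh1l1* at 0.00717 with the block and 0.0848 with the covariate, and *Sparcl1* at 0.0297 with the block and 0.173 with the covariate. In *Fzd3* against *Celsr3* mutants, *Sparcl1* was at -0.0324 with the covariate. With 1 library left out, the *Celsr3* mutant values ran from -0.24 to 0.0411 for *Nfia*, -0.18 to 0.10 for *Nfib*, -0.0556 to 0.16 for *Nfix*, -0.0694 to 0.0855 for *Zbtb20*, -0.25 to 0.0770 for *Aldh1l1*, -0.17 to 0.0260 for *Aldoc* and -0.17 to 0.10 for *Sparcl1*. The cause was not tested. Count tests were not run, and 3 libraries a genotype limit which differences the fit can resolve.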

Other observations

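*E130114P18Rik*, a gene on the strand opposite to *Nfia* whose exons overlap those of *Nfia* by 4 bases, was named after its values were seen. It was at 16.8, 16.5 and 18.2 CPM in controls, 10.5, 11.6 and 12.6 CPM in *Fzd3* mutants and 15.5, 18.2 and 16.4 CPM in *Celsr3* mutants. All *Fzd3* mutant libraries lay below all others, as they did for *Nfia*. The log2 fold change against control was -0.55 in *Fzd3* mutants (limma adjusted *P* = 0.00103) and -0.04 in *Celsr3* mutants. How the levels of the neighbouring genes are related was not tested.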
